A study of Mus musculus with 16 samples.

Results

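The genes described here encode the chains of the collagens, taken as every gene of the deposited expression table whose symbol is Col, a type number, the letter a and a chain number. The rule found 44 genes among 39171 features, and all 44 were listed above 0 in at least 1 library. Astrocytes had been sorted by flow cytometry from thalamus and spinal cord tissue of 4 C57BL/6 mice at postnatal day 15. Every animal carried 1 copy of the IL-33-mCherry reporter and the Aldh1l1-GFP reporter, so the reporter-negative groups had the same genotype as the positive ones. Each mouse gave 4 libraries, which made 4 groups of 4: thalamus negative, thalamus positive, spinal cord negative and spinal cord positive, where positive and negative refer to the mCherry signal of IL-33. How the GFP signal was used in the gate, and whether the reporter allele alters Il33 itself, was not given in the sources used here.

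Collagens are secreted as trimers of alpha chains wound into a triple helix. Fibrillar chains build the cross-striated fibrils of connective tissue, type IV chains build the sheet-like network of basement membranes, and FACIT chains, the fibril-associated collagens with interrupted triple helices, attach to the surface of fibrils. In the central nervous system collagen lies mostly in the meninges and in the basement membranes around blood vessels, which astrocyte endfeet contact, while the tissue between cells holds little fibrillar collagen.

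Values are FPKM, fragments counted on a gene relative to its transcript length and to the fragments of the whole library. Levels are set side by side between genes and between libraries on that scale, which does not remove every difference between them. Whether the values were further scaled between libraries was not given in the sources used here. A library summed to between 984986 and 2344483 FPKM and had 13260 to 14731 features at 1 FPKM or more. Il33 was at 18.6 ± 6.01 (mean ± SD, n = 4) in thalamus negative and 27.4 ± 3.41 FPKM in thalamus positive libraries, and at 24.6 ± 7.93 and 27.9 ± 3.49 FPKM in the spinal cord ones. The negative and positive ranges of Il33 overlapped in both regions, and limma gave an adjusted p of 0.0736 for the thalamus and of 0.559 for the cord, so the transcript did not separate the sorted groups past the threshold. Aldh1l1 was at 25.0 ± 11.6, 18.3 ± 0.607, 19.9 ± 2.78 and 25.4 ± 1.12 FPKM in the same order. Summed levels of 13 astrocyte markers were 5970 to 7184 FPKM in thalamus negative and 5465 to 6532 FPKM in thalamus positive libraries. They were 7124 to 9781 FPKM in spinal cord negative and 9908 to 11115 FPKM in spinal cord positive libraries. The negative groups also held markers of other cell types, which are given beside the results they move with.

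The head-to-head type IV genes Col4a1 and Col4a2 were both called lower in positive libraries of both regions, and their start regions, which overlap, are shown for that reason. Col4a1 (chr8:11198423-11312826, minus strand) and Col4a2 (chr8:11312805-11449287, plus strand) are transcribed away from each other, and their annotated first exons overlap by 22 bases in GRCm38. The promoter windows, from 250 bases before to 50 bases after each start, are credited to RefSeq (GRCm38.p6) and cover chr8:11312777-11313076 for Col4a1 and chr8:11312555-11312854 for Col4a2. Capitals mark the 78 bases, chr8:11312777-11312854, that lie in both windows and are read on opposite strands, 5′ to 3′.
Col4a1: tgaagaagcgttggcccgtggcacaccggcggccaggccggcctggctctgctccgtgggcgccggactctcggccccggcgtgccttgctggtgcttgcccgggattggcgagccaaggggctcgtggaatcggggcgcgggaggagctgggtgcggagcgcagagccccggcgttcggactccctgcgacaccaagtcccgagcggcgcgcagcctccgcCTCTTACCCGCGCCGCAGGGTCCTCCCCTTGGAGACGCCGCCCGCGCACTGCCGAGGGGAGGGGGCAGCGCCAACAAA
Col4a2: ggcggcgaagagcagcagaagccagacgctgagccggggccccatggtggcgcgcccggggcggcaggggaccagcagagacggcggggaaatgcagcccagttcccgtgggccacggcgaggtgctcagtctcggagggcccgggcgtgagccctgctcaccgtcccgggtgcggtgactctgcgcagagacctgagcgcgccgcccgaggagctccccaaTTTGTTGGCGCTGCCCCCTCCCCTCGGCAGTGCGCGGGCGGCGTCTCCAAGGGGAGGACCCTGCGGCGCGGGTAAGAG
Col4a5 (chrX:141475385-141689234, plus strand) and Col4a6 (chrX:141165403-141474076, minus strand) have the same arrangement on the X chromosome with 1308 bases between them. Their windows, chrX:141475169-141475468 and chrX:141474027-141474326, share no base and are shown in lower case for comparison. The Col4a5 window is set by the RefSeq start, chrX:141475419, which lies 34 bases downstream of the GENCODE gene start given here.
Col4a5: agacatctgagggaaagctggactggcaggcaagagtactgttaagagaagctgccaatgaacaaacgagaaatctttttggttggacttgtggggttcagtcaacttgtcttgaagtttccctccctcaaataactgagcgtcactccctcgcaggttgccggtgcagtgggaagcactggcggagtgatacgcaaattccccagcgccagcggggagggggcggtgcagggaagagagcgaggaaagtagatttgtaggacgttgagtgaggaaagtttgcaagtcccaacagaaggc
Col4a6: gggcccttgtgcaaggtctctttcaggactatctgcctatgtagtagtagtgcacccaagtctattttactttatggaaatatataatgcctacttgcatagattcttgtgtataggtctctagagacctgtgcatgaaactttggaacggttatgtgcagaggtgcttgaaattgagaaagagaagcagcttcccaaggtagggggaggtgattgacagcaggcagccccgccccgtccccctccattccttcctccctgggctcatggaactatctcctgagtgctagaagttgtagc

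The Col4a1 and Col4a2 windows held 74.0% and 73.7% G and C, against a median of 52.7% (quartiles 45.7% and 61.7%) over 32851 promoter windows of the same length. Col4a5 was at 52.7% and Col4a6 at 48.3%. Each window was searched on both strands for the GC box (GGGCGG), the CCAAT box (its letters in the name), the TATA box (TATAAA) and the CTC element (CCCTCCCC), with matches of different motifs counted even where they overlap. Col4a1, Col4a2 and Col4a5 each held the GC box, the CCAAT box and the CTC element, while Col4a6 held the GC box alone, and the TATA box was in none of these 4 windows. The CTC element and a GC box of Col4a1 and Col4a2 lay in the bases shared by both windows. These matches are the same bases read on opposite strands and count in each window. Over all promoters the shares were 35.7% for the GC box, 37.4% for the CCAAT box, 13.6% for the TATA box and 10.8% for the CTC element. Promoter windows were found for 35 of the 44 collagen genes, 38 windows in all, of which 23, 13, 5 and 11 held them in the same order. The third head-to-head pair of the family, Col4a4 and Col4a3 on chromosome 1 with 71 bases between them, was nearly silent: Col4a4 did not exceed 0.131 FPKM and Col4a3 did not exceed 1.18 FPKM in any library.

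Summed collagen FPKM, not divided by a library's total, was higher in spinal cord than in thalamus libraries. The summed FPKM of the 44 genes was 253 ± 30.8 in spinal cord negative, 177 ± 8.45 in spinal cord positive, 122 ± 16.4 in thalamus negative and 89.0 ± 1.28 in thalamus positive libraries (mean ± SD, n = 4 each). These ranges, 222 to 291, 168 to 188, 106 to 142 and 87.8 to 90.7 FPKM, did not overlap. A few chains carried much of the sum: Col9a3, Col1a2, Col12a1 and Col16a1 together held 47.8 ± 9.33% of it in thalamus negative, 63.7 ± 1.45% in thalamus positive, 60.1 ± 4.77% in spinal cord negative libraries and 72.3 ± 3.04% in spinal cord positive ones. By group mean, 13 genes were highest in spinal cord negative, 15 in spinal cord positive, 11 in thalamus negative and 5 in thalamus positive libraries.

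**Figure D1:**
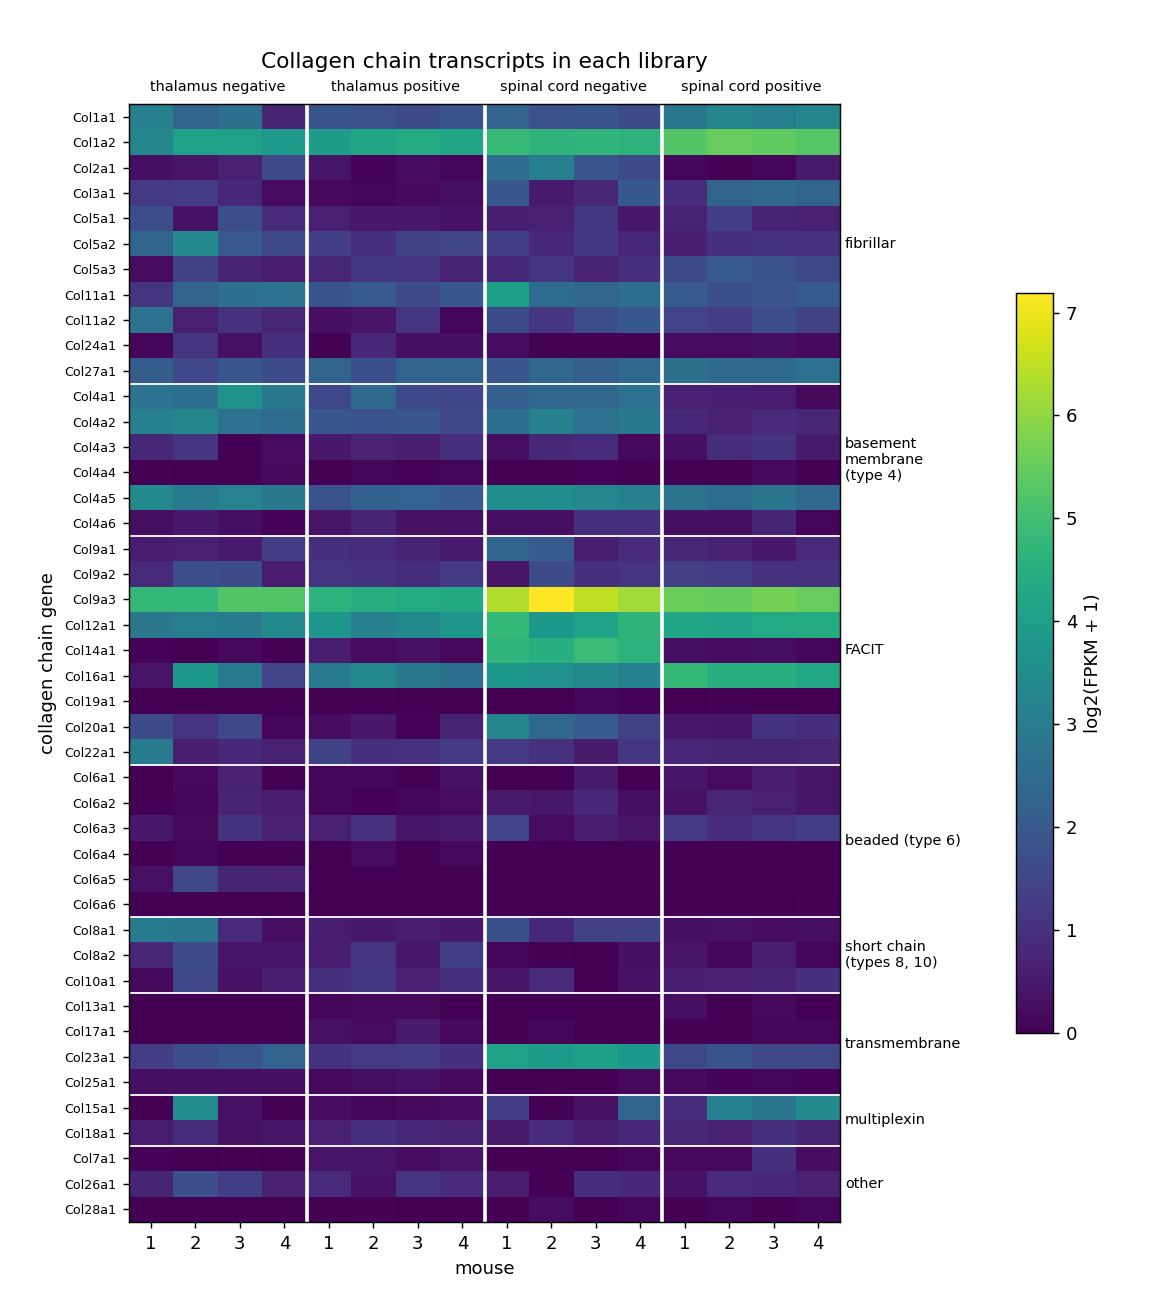
Level of the 44 collagen chain genes (rows, grouped by structural class) in the 16 libraries (columns, by group and mouse), as log2(FPKM + 1) on the colour scale. Col9a3 and Col1a2 are among the brightest rows in every group, Col14a1 and Col23a1 are bright in the 4 spinal cord negative libraries, and 12 genes do not reach 1 FPKM in any library.

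The heatmap shows that the order of levels differed between groups. Col9a3 had the highest mean in all 4 groups. In spinal cord negative libraries it was followed by Col1a2, Col14a1, Col12a1 and Col23a1, where the range of Col12a1 overlapped those of the other 3, Col1a2 overlapped Col14a1, and Col23a1 lay below both. In spinal cord positive libraries Col1a2 came next with a range that overlapped that of Col9a3, and Col16a1 and Col12a1 followed, again with overlapping ranges. In thalamus negative libraries Col1a2, Col4a5, Col12a1, Col4a1, Col4a2 and Col16a1 followed Col9a3. The ranges of these 6 genes overlapped, and the last 5 had means between 5.54 and 7.70 FPKM. In thalamus positive libraries the order was Col9a3, Col1a2, Col12a1 and Col16a1, and the ranges overlapped between Col9a3 and Col1a2 and between Col12a1 and Col16a1.

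Of the 44 genes, 24 reached 1 FPKM in at least 4 libraries and were tested, in a fit over the 16340 features that met the same condition. The other 20 had no library above 4.12 FPKM (Col9a1) and no group mean above 2.16 FPKM. The condition can be met through 1 group alone, which was so for Col14a1, at 1 FPKM or more only in the 4 spinal cord negative libraries. Col2a1 reached 1 FPKM in those 4 libraries and in 1 thalamus negative library. Differences are log2 fold changes of FPKM + 1 with their standard error (SE) from limma, a scale that understates the change of low genes, and a gene is said to have risen or fallen where its p-value, adjusted over all 16340 features by Benjamini-Hochberg, was under 0.05. In positive against negative thalamus libraries 0 of 24 collagen genes rose, also 0 at an unadjusted p under 0.05, and 5 (20.8%) fell. Over all features tested 11.6% rose and 13.6% fell. In the spinal cord 3 of 24 (12.5%) rose and 8 (33.3%) fell, against 9.04% and 10.5% of all features. The median log2 fold change of the 24 genes was -0.53 for the thalamus and -0.14 for the spinal cord, beside 0.06 and 0.09 over all features.

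**Figure D2:**
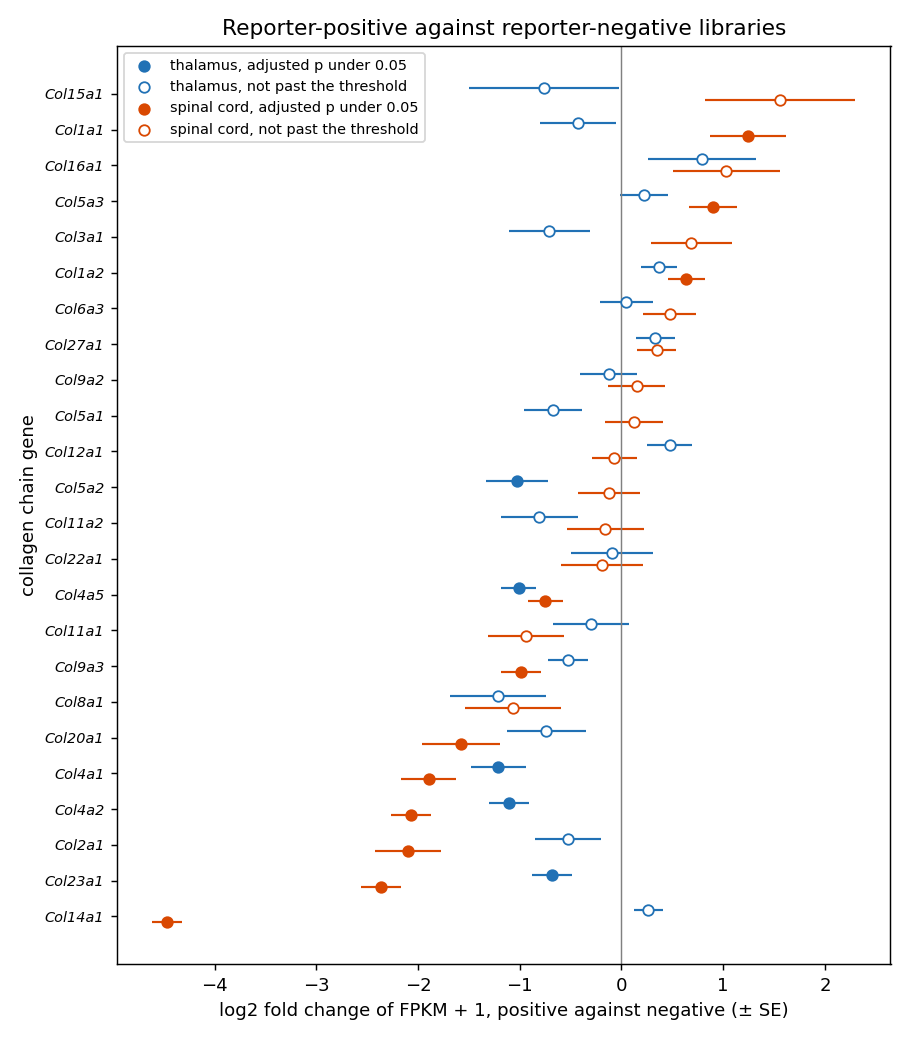
Log2 fold change of FPKM + 1 with its SE (x axis), positive against negative, for the 24 tested collagen genes (y axis) in the thalamus (blue) and the spinal cord (orange), with filled points for adjusted p under 0.05. Col4a1, Col4a2, Col4a5 and Col23a1 are filled and left of 0 in both regions, Col1a1, Col1a2 and Col5a3 are filled and right of 0 in the spinal cord, and Col14a1 lies at -4.47 in the spinal cord.

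The difference of the positive against negative change between the regions was itself tested, as the spinal cord change minus the thalamus change. It was below 0 for 2 of 24 genes, Col14a1 and Col23a1 (8.33%, against 1.43% of all features), and above 0 for 0 of 24, where 3 had an unadjusted p under 0.05 and 1.13% of all features were called. Between regions within the negative gate, 6 of 24 (25.0%) were higher in the spinal cord and 1 (4.17%) was lower, against 5.27% and 4.54% of all features. Within the positive gate 5 (20.8%) were higher and 2 (8.33%) lower, against 4.22% and 1.88%. Col14a1, which had to differ because of how it entered the fit, is 1 of the 2 genes with a regional difference, 1 of the 8 that fell in the spinal cord and 1 of the 6 higher there in the negative gate. Col2a1, for which the spinal cord negative libraries alone met the level condition, is another of those 8 and of those 6. These comparisons share libraries and are not independent of each other.

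Type IV chains fell with the reporter in both regions. Col4a1 and Col4a2, the chains of the basic basement membrane network, were at several FPKM in negative libraries of both regions, at about 2 to 5 FPKM in thalamus positive and under 1 FPKM in spinal cord positive libraries. Col4a5, a chain that assembles with Col4a3 and Col4a4 or with Col4a6, was lower in positive libraries as well but stayed above 2 FPKM everywhere. All 3 tested chains of the 6 type IV genes were called lower in both regions. Summed over the 6 genes, the level was 22.5 ± 3.44 FPKM in thalamus negative, 9.43 ± 1.83 in thalamus positive and 21.2 ± 1.65 in spinal cord negative libraries, and the positive libraries of the cord were at 7.38 ± 1.27 FPKM.

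Col4a1 was at 5.61, 5.13, 12.0 and 6.51 FPKM in the thalamus negative libraries of mice 1 to 4 and at 1.96, 4.52, 2.01 and 1.83 FPKM in the thalamus positive ones. In the spinal cord it was at 3.43, 4.23, 4.22 and 5.39 FPKM in negative libraries and 0.563, 0.513, 0.493 and 0.141 FPKM in positive ones. The groups did not overlap in either region, mouse 3 stood high among the thalamus negative libraries and mouse 2 among the thalamus positive ones. The change was log2 fold change -1.21 ± 0.27, adjusted p = 0.00466 in the thalamus (limma) and log2 fold change -1.90 ± 0.27, adjusted p = 0.000164 in the spinal cord. The thalamus call was lost without the libraries of mouse 3 (adjusted p = 0.0656).

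Col4a2 was at 7.76, 8.69, 5.58 and 4.70 FPKM in negative thalamus libraries and at 2.85, 2.53, 2.76 and 1.90 FPKM in positive ones. Its spinal cord values were 5.23, 7.80, 5.58 and 6.44 FPKM in negative libraries and 0.764, 0.589, 0.818 and 0.703 FPKM in positive ones. The positive libraries lay below every negative library of their region, and those of the spinal cord were the lowest of all 16. The change in thalamus libraries was log2 fold change -1.11 ± 0.19, adjusted p = 0.000904, and in those of the spinal cord log2 fold change -2.07 ± 0.19, adjusted p = 3.07e-06 (limma), and both calls held in all 19 alternatives run. The regional difference of that change did not pass the threshold (log2 difference -0.96 ± 0.27, adjusted p = 0.0883), except with a pseudocount of 0.1 or 0.5 or without the negative thalamus library of mouse 2 (adjusted p = 0.029, 0.0499 and 0.0462).

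Within the positive gate Col4a1 and Col4a2 were lower in the spinal cord than in the thalamus, without overlap (log2 fold change -1.28 ± 0.27, adjusted p = 0.00943 and log2 fold change -1.02 ± 0.19, adjusted p = 0.00478, limma). The Col4a1 call was lost without mouse 2 or mouse 4 (adjusted p = 0.0773 and 0.0831) and the Col4a2 call without mouse 3 (adjusted p = 0.0774). Within the negative gate both pairs of groups overlapped, with adjusted p = 0.203 and 0.902. The ratio of Col4a2 to Col4a1 had a median of 1.05 in thalamus negative, 1.21 in thalamus positive, 1.42 in spinal cord negative libraries and 1.51 in spinal cord positive ones. Over single libraries it ran from 0.463 to 1.84, apart from the spinal cord positive library of mouse 4, where Col4a1 was at 0.141 FPKM and the ratio was 5.00.

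Col4a5 was at 9.63, 6.70, 8.10 and 6.38 FPKM in negative thalamus libraries and at 2.55, 3.65, 3.83 and 3.20 FPKM in positive ones. In the spinal cord it was at 10.7, 10.6, 8.97 and 7.74 FPKM in negative libraries and 5.78, 4.86, 5.80 and 4.50 FPKM in positive ones. The negative libraries were above the positive ones in both regions with no overlap. The thalamus change was log2 fold change -1.01 ± 0.17, adjusted p = 0.000764 and the spinal cord change log2 fold change -0.75 ± 0.17, adjusted p = 0.00731 (limma), and the latter call was lost without mouse 2 (adjusted p = 0.0689). Its neighbour Col4a6 was low, from 0.0445 to 1.00 FPKM, and in the positive gate Col4a5 itself was higher in the spinal cord without overlap but not called (adjusted p = 0.0908, and 0.0179 with those groups fitted alone). The ratio of Col4a5 to Col4a6 ran from 5.61 to 144 over the libraries.

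**Figure D3:**
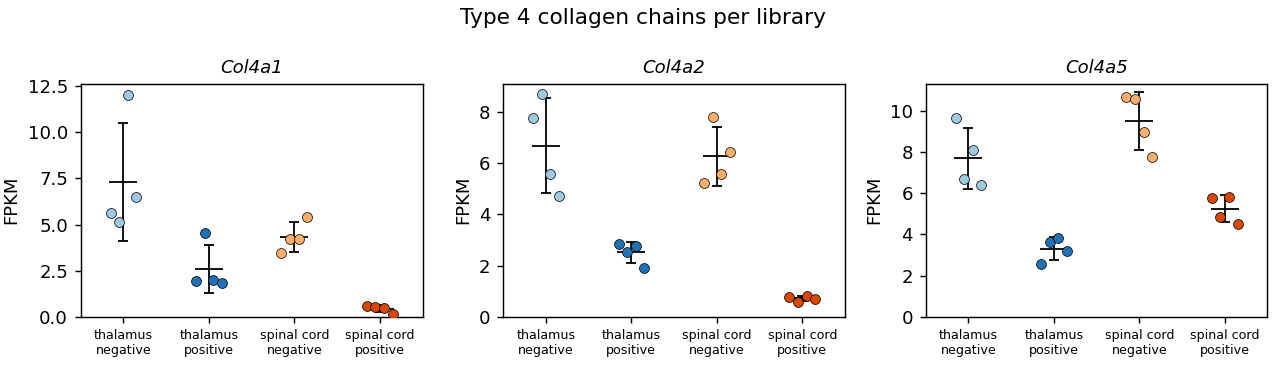
FPKM (y axis) of Col4a1, Col4a2 and Col4a5 in the 16 libraries, by group on the x axis, with points for the mice in order from left to right and bars for the mean ± SD of 4. In every panel the positive libraries lie below the negative libraries of the same region, and the spinal cord positive libraries of Col4a1 and Col4a2 are all under 1 FPKM.

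The plot of type IV chains shows a gap between gates in each region. Summed levels of blood vessel cell markers moved in the same direction. Of 12 endothelial markers, 2 fell in thalamus libraries and 9 in spinal cord ones, beside 13.6% and 10.5% of all features. Their summed level was 12.1 to 19.5 FPKM in thalamus negative, 5.99 to 7.97 in thalamus positive and 34.6 to 52.1 in spinal cord negative libraries. The positive libraries of the cord were at 4.90 to 6.22 FPKM. Of 11 tested mural cell markers, 4 fell in thalamus libraries and 3 in spinal cord ones, beside the same shares. The summed levels were 109 to 134, 21.1 to 26.9, 73.2 to 125 and 24.3 to 28.6 FPKM in the same order. Tie1 of the endothelial and Pdgfrb of the mural markers had their highest mean in a positive group. Cdh5, an endothelial cadherin, was at 0.157, 0.332, 0.121 and 0.0628 FPKM in thalamus positive and 0.204, 0.142, 0.274 and 0.0453 FPKM in spinal cord positive libraries. Rgs5, a pericyte gene, made up much of the mural sum in negative libraries. It was at 68.3 ± 16.6 FPKM in negative thalamus libraries and at 5.43 ± 1.47 FPKM in positive ones. The endothelial sums of the negative groups did not overlap. Those of the type IV genes did, at 17.9 to 26.0 FPKM (thalamus) and 19.8 to 23.6 FPKM (spinal cord). Markers of other cell types fell as well. In the thalamus 12 of 12 ependymal and 12 of 13 oligodendrocyte markers fell, and in the spinal cord 11 of 12 and 13 of 13. The part of vessel cells or of these other cells in the type IV differences was not tested. In bulk libraries fewer cells of a type and less RNA per cell cannot be told apart.

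FACIT chains held the largest summed level of any class, 161 ± 29.2 FPKM in spinal cord negative, 91.2 ± 5.35 in spinal cord positive, 50.1 ± 5.09 in thalamus negative and 42.6 ± 3.69 FPKM in thalamus positive libraries. Of the 9 genes 7 were tested: Col9a3, Col14a1 and Col20a1 fell with the reporter in the spinal cord, beside 10.5% of all features, and Col14a1 was tested only through its high group. In the thalamus none was called, beside 11.6% of all features higher and 13.6% lower, and 1 (Col9a3) had an unadjusted p under 0.05. Between regions in the negative gate, Col9a3, Col12a1 and Col14a1 were higher in the spinal cord, beside 5.27% of all features. Col14a1, a chain that binds type I fibrils, differed most.

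Col14a1 was at 25.1, 22.1, 28.6 and 24.1 FPKM in the spinal cord negative libraries of mice 1 to 4 and at 0.206, 0.185, 0.194 and 0.101 FPKM in the spinal cord positive ones. Thalamus values were 0.0471, 0, 0.115 and 0.00696 FPKM in negative libraries and 0.505, 0.155, 0.243 and 0.138 FPKM in positive ones. The spinal cord negative libraries stood alone, with all 12 others at 0.51 FPKM or less. Because the gene passed the level condition through that 1 group, it had to differ, so its tests are a description, and it fell out of the fit whenever a spinal cord negative library was left out. The change with the reporter in the spinal cord was log2 fold change -4.47 ± 0.15, adjusted p = 9.62e-11 (limma). In the thalamus it was log2 fold change 0.27 ± 0.15, adjusted p = 0.201 (0.0254 with a pseudocount of 0.1), and the regional difference of the change was -4.73 ± 0.21 on the log2 scale (adjusted p = 1.67e-08). Spinal cord negative libraries exceeded thalamus negative ones by log2 fold change 4.63 ± 0.15, adjusted p = 5.52e-11.

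Col9a3, a chain of type IX collagen, which coats type II fibrils in cartilage, was at 78.9, 145, 88.9 and 72.7 FPKM in negative spinal cord libraries and at 46.8, 43.9, 50.6 and 44.6 FPKM in positive ones. The thalamus levels were 26.5, 25.9, 36.7 and 36.7 FPKM in negative libraries and 24.0, 21.3, 20.1 and 19.7 FPKM in positive ones. No groups overlapped, and the order from spinal cord negative over spinal cord positive and thalamus negative to thalamus positive held in all 4 mice. It fell with the reporter in the spinal cord (log2 fold change -0.98 ± 0.20, adjusted p = 0.00262, limma), a call kept in all 19 alternatives. The thalamus change was log2 fold change -0.53 ± 0.20, adjusted p = 0.0619, and passed only without mouse 2 or without the negative thalamus library of mouse 1 or 2 (adjusted p = 0.0322, 0.0445 and 0.0471).

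Col9a3 was also higher in the spinal cord than in the thalamus within the negative gate (log2 fold change 1.55 ± 0.20, adjusted p = 0.000115) and within the positive gate (log2 fold change 1.10 ± 0.20, adjusted p = 0.00325, limma). The latter was lost without mouse 3 (adjusted p = 0.0774). The other chains of type IX collagen were low: Col9a1 ran from 0.418 to 4.12 FPKM and Col9a2 from 0.293 to 2.31 FPKM, and Col9a3 was at least 19.1 times Col9a1 and 11.2 times Col9a2 in every library. Of 3853 exonic bases of Col9a3 (chr2:180597790-180622189), 234 overlap exons of Tcfl5 on the opposite strand, and whether strand was used in the authors' counting was not given in the sources used here, so reads over those bases cannot be assigned.

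Col12a1, which binds type I fibrils as Col14a1 does, was at 26.7, 13.3, 17.1 and 24.6 FPKM in negative spinal cord libraries and at 17.8, 16.7, 20.2 and 20.4 FPKM in positive ones. In the thalamus it was at 6.15, 7.48, 6.58 and 9.53 FPKM in negative libraries and 12.7, 7.78, 9.75 and 13.0 FPKM in positive ones. The spinal cord libraries all exceeded the thalamus libraries of the same gate, while the gates overlapped in both regions. It was higher in the spinal cord in the negative gate (log2 fold change 1.31 ± 0.22, adjusted p = 0.00141, limma), in all 19 alternatives. In the positive gate the adjusted p was 0.0573, and 0.0345 with the mouse as a replicate block.

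Col20a1, a FACIT chain of low level, was at 8.86, 4.37, 3.19 and 1.68 FPKM in negative spinal cord libraries and at 0.377, 0.360, 1.08 and 0.936 FPKM in positive ones. Its thalamus values were 2.21, 1.16, 1.88 and 0.0827 FPKM in negative libraries and 0.183, 0.395, 0.0482 and 0.618 FPKM in positive ones. Mouse 1 was the highest of the spinal cord negative libraries, and the spinal cord gates did not overlap. It fell with the reporter in the spinal cord (log2 fold change -1.58 ± 0.38, adjusted p = 0.00997, limma), a call lost without mouse 1 or mouse 2 (adjusted p = 0.0673 and 0.0888). The thalamus change (log2 fold change -0.74 ± 0.38, adjusted p = 0.176) was called without mouse 4 or its negative library (adjusted p = 0.04 and 0.0461). The difference between regions in the negative gate (adjusted p = 0.0658) was called without the thalamus library of mouse 1 or the spinal cord library of mouse 4 (adjusted p = 0.0447 and 0.0238). Col20a1 shares 79 of 5142 exonic bases with BX649560.1 on the same strand.

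Col16a1, a FACIT chain, pointed the other way. It was at 13.3, 11.4, 9.74 and 7.90 FPKM in negative spinal cord libraries and at 26.7, 22.0, 22.3 and 18.8 FPKM in positive ones. Thalamus values were 0.310, 13.1, 6.95 and 1.78 FPKM in negative libraries and 6.84, 9.16, 6.35 and 5.30 FPKM in positive ones. The spinal cord positive libraries lay above all 12 others, while the thalamus negative libraries spread from the lowest value of all to nearly the highest spinal cord negative one. With the spread shared by all groups the spinal cord change did not pass (log2 fold change 1.03 ± 0.53, adjusted p = 0.192, limma). Fitted on the spinal cord groups alone, it did (adjusted p = 0.00601), and so did the difference between regions in the positive gate when fitted alone (adjusted p = 0.000491, against 0.104). Without the negative thalamus library of mouse 2, the rise in the thalamus was called (adjusted p = 0.0381, against 0.29), as was the difference between regions in the negative gate (adjusted p = 0.0145, against 0.133).

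**Figure D4:**
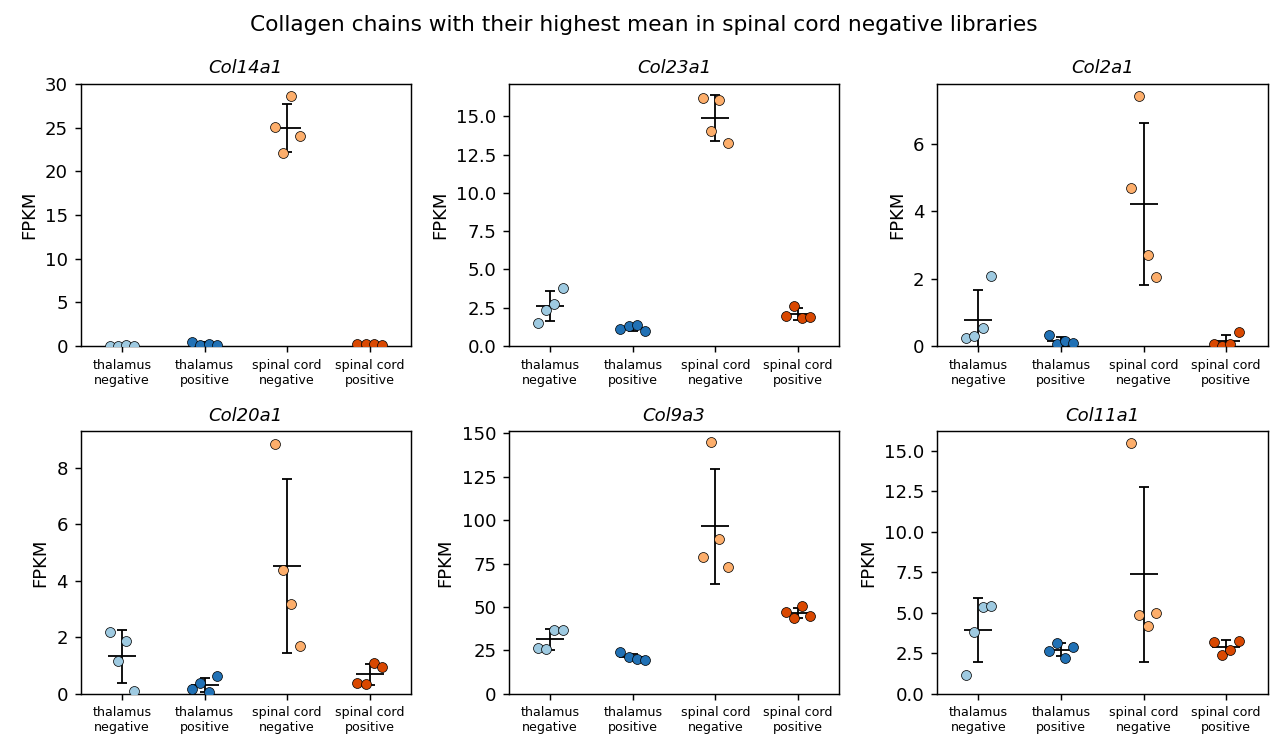
FPKM (y axis, from 0 with its own scale in each panel) of 6 collagen genes with their highest mean in spinal cord negative libraries, by group on the x axis, with points for mice 1 to 4 and bars for the mean ± SD. For Col14a1 and Col23a1 the spinal cord negative libraries stand clear of all others, while the Col11a1 mean there rests on mouse 1 at 15.5 FPKM.

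Col23a1, a transmembrane collagen, was at 16.2, 14.0, 16.1 and 13.2 FPKM in negative spinal cord libraries and at 1.97, 2.63, 1.86 and 1.90 FPKM in positive ones. The thalamus levels were 1.47, 2.33, 2.77 and 3.81 FPKM in negative libraries and 1.08, 1.32, 1.38 and 0.963 FPKM in positive ones. As the plot of chains high in spinal cord negative libraries shows, that group lay above all 12 others, and the thalamus gates were also apart, by a small margin. Col23a1 fell with the reporter in the spinal cord (log2 fold change -2.36 ± 0.19, adjusted p = 8.64e-07, limma) and was higher in the spinal cord within the negative gate (log2 fold change 2.18 ± 0.19, adjusted p = 4.84e-06), both in all 19 alternatives. It fell in the thalamus as well (log2 fold change -0.68 ± 0.19, adjusted p = 0.0197), but that call was lost in 7 of 19 alternatives: when the thalamus groups were fitted alone, without mouse 2, 3 or 4, without the negative library of mouse 4 and without the positive library of mouse 1 or 4 (adjusted p from 0.0504 to 0.179). The regional difference of the change was -1.68 ± 0.28 (adjusted p = 0.00417), and was lost without mouse 2 or mouse 3 (adjusted p = 0.0673 and 0.0964). In the positive gate the difference between regions had an adjusted p of 0.178, and of 0.0159 with those groups fitted alone. The other transmembrane genes, Col13a1, Col17a1 and Col25a1, stayed at or below 0.433 FPKM.

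Col2a1, the chain of the main cartilage fibril, was at 4.69, 7.42, 2.71 and 2.06 FPKM in negative spinal cord libraries and at 0.0727, 0, 0.0616 and 0.428 FPKM in positive ones. In the thalamus it was at 0.230, 0.291, 0.542 and 2.08 FPKM in negative libraries and 0.324, 0.0522, 0.154 and 0.0875 FPKM in positive ones. The spinal cord gates did not overlap, and the thalamus negative library of mouse 4 reached the spinal cord negative range. Col2a1 fell with the reporter in the spinal cord (log2 fold change -2.10 ± 0.32, adjusted p = 0.000349, limma), in all 17 alternatives that gave a value. It was higher in spinal cord than in thalamus negative libraries (log2 fold change 1.54 ± 0.32, adjusted p = 0.0065), a call lost when those groups were fitted alone and without mouse 1 or 2 (adjusted p = 0.103, 0.0784 and 0.0848). The regional difference of the change (adjusted p = 0.0944) was called without the negative thalamus library of mouse 4 (adjusted p = 0.024). The gene passed the level condition through the spinal cord negative libraries and 1 thalamus negative library. Its high group alone was enough for that, so its tests are a description, as for Col14a1.

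Col11a1, a chain of the type XI fibrils that accompany type II, was at 15.5, 4.87, 4.19 and 5.01 FPKM in negative spinal cord libraries and at 3.17, 2.37, 2.73 and 3.28 FPKM in positive ones. Its thalamus values were 1.17, 3.84, 5.34 and 5.42 FPKM in negative libraries and 2.65, 3.16, 2.19 and 2.86 FPKM in positive ones. The spinal cord gates did not overlap, but the change did not pass the threshold (log2 fold change -0.94 ± 0.37, adjusted p = 0.0943, limma), and the thalamus gates overlapped. Without mouse 1, whose thalamus negative library was the lowest there, the thalamus change was called (adjusted p = 0.036).

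Markers of the oligodendrocyte lineage were also highest in the spinal cord negative libraries. Of 13 oligodendrocyte markers, 13 fell with the reporter in the spinal cord and 12 in the thalamus, beside 10.5% and 13.6% of all features. In spinal cord negative libraries 13 were higher than in thalamus negative ones, beside 5.27%. Their summed level was 3592 to 3774 FPKM in spinal cord negative, 161 to 173 in spinal cord positive, 482 to 998 in thalamus negative and 80.3 to 117 FPKM in thalamus positive libraries. Of 9 oligodendrocyte precursor markers, 6 fell in the spinal cord and 5 in the thalamus, beside 10.5% and 13.6% of all features. Their summed levels were 499 to 560.2, 222 to 269, 232 to 327 and 144 to 233 FPKM in the same order. Sox10, which marks the whole lineage, was at 96.3 ± 15.6 FPKM in negative spinal cord libraries and at 0.841 ± 0.438 FPKM in positive ones. The mean was highest in the spinal cord negative group for 11 of 12 endothelial markers. Of 14 fibroblast and leptomeningeal markers this was so for 3, among them Aldh1a2 at 8.97 ± 2.38 FPKM there and at most 0.746 FPKM in all other libraries, while 6, including Dcn, Lum and Slc13a3, were highest in the spinal cord positive group, 4 in the thalamus negative and 1 in the thalamus positive group. Ependymal markers were highest in thalamus negative libraries (399 to 729.5 FPKM against 123 to 178 in spinal cord negative). Of 12 ependymal markers 11 also fell with the reporter in the spinal cord, where the positive libraries summed to 12.3 to 16.4 FPKM. The part of any of these cells in the levels of Col14a1, Col23a1, Col9a3, Col20a1, Col2a1 and Col11a1 was not tested.

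Type I chains were higher in spinal cord positive libraries. Col1a1 and Col1a2 together form type I collagen, the most common fibril of connective tissue. Of 10 tested fibrillar genes among 11, Col1a1, Col1a2 and Col5a3 rose with the reporter in the spinal cord, beside 9.04% of all features, and Col2a1 fell, beside 10.5%. For Col2a1 its high group alone met the level condition. In the thalamus Col5a2 fell, beside 13.6% of all features, and none rose, beside 11.6%, where 0 had an unadjusted p under 0.05 in that direction. Summed over the 11 genes, the level was 65.8 ± 5.86 FPKM in spinal cord positive, 50.2 ± 8.66 in spinal cord negative, 35.6 ± 4.89 in thalamus negative and 30.2 ± 2.64 FPKM in thalamus positive libraries.

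Col1a2 was at 28.4, 24.7, 25.6 and 23.8 FPKM in negative spinal cord libraries and at 37.3, 44.8, 42.2 and 37.9 FPKM in positive ones. Thalamus values were 8.67, 16.2, 16.3 and 13.8 FPKM in negative libraries and 14.4, 17.7, 20.5 and 18.0 FPKM in positive ones. The spinal cord gates did not overlap, the thalamus gates did, and all spinal cord libraries exceeded all thalamus libraries. It was higher in the spinal cord in the positive gate (log2 fold change 1.16 ± 0.18, adjusted p = 0.00105, limma), in all 19 alternatives, and in the negative gate (log2 fold change 0.89 ± 0.18, adjusted p = 0.00505). The negative gate call was lost when those groups were fitted alone or without mouse 4 (adjusted p = 0.119 and 0.0513). The rise with the reporter in the spinal cord (log2 fold change 0.64 ± 0.18, adjusted p = 0.0218) was lost in 6 of 19 alternatives, without mouse 2, 3 or 4, without the negative library of mouse 4 and without the positive library of mouse 2 or 3 (adjusted p from 0.0502 to 0.121).

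Col1a1 was at 3.75, 2.45, 2.66 and 2.13 FPKM in negative spinal cord libraries and at 6.11, 8.80, 7.60 and 8.92 FPKM in positive ones. Its thalamus values were 7.81, 4.02, 5.25 and 0.687 FPKM in negative libraries and 2.65, 2.46, 2.14 and 2.61 FPKM in positive ones. The spinal cord gates did not overlap, while the thalamus negative libraries spread on both sides of the positive ones, with mouse 4 lowest. It rose with the reporter in the spinal cord (log2 fold change 1.25 ± 0.37, adjusted p = 0.0292, limma), a call lost in 10 of 19 alternatives: a pseudocount of 0.1, no level condition, without mouse 2 or 3, and without the spinal cord library of mouse 2, 3 or 4 of either gate (adjusted p from 0.0508 to 0.154). Without the negative thalamus library of mouse 4, the change there was called lower (adjusted p = 0.00926, against 0.43) and the regional difference was called (adjusted p = 0.00197, against 0.123). Without all libraries of mouse 4 both were called too (adjusted p = 0.0368 and 0.0467). Leaving out that 1 library also gave a difference between regions in the negative gate, lower in the spinal cord (adjusted p = 0.0303, against 0.665).

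Col1a1 was also higher in spinal cord than in thalamus positive libraries (log2 fold change 1.34 ± 0.37, adjusted p = 0.0458, limma), but not with the mouse as a replicate block (adjusted p = 0.0574), and the call held in 4 of 19 alternatives. It was lost without the positive library of any mouse in either region and without all libraries of mouse 1, 2 or 3 (adjusted p from 0.066 to 0.273). Col1a2 exceeded Col1a1 in all 16 libraries. The median ratio was 3.56 in thalamus negative, 7.06 in thalamus positive, 9.86 in spinal cord negative libraries and 5.32 in spinal cord positive ones, with a range from 1.11 to 20.1 among the thalamus negative ones.

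Col5a3, a chain of type V collagen, which starts fibrils, was at 0.774, 1.11, 0.633 and 0.941 FPKM in negative spinal cord libraries and at 2.21, 3.19, 2.61 and 1.96 FPKM in positive ones. The thalamus levels were 0.154, 1.65, 0.626 and 0.460 FPKM in negative libraries and 0.719, 1.25, 1.15 and 0.621 FPKM in positive ones. The spinal cord positive libraries were above all 12 others. It rose with the reporter in the spinal cord (log2 fold change 0.90 ± 0.23, adjusted p = 0.0139, limma), a call lost with a pseudocount of 0.1 and without mouse 3 or 4 (adjusted p = 0.0504, 0.117 and 0.0524). The difference between regions in the positive gate (log2 fold change 0.85 ± 0.23, adjusted p = 0.0428) held in 3 of 18 alternatives. It was lost without any single mouse and without the positive library of any mouse in either region (adjusted p from 0.057 to 0.222).

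Col5a2, another type V chain, differed in the opposite way and was at 3.96, 9.26, 3.02 and 2.02 FPKM in negative thalamus libraries and at 1.52, 0.940, 1.61 and 1.82 FPKM in positive ones. In the spinal cord it was at 1.54, 0.732, 1.24 and 0.757 FPKM in negative libraries and 0.516, 0.939, 1.06 and 1.04 FPKM in positive ones. The thalamus negative libraries were above all others, with mouse 2 highest. It fell with the reporter in the thalamus (log2 fold change -1.03 ± 0.30, adjusted p = 0.0232, limma), a call lost when the thalamus groups were fitted alone, without mouse 1, 2 or 3 and without the thalamus positive library of mouse 2 (adjusted p from 0.0676 to 0.129). Spinal cord negative libraries were below thalamus negative ones (log2 fold change -1.29 ± 0.30, adjusted p = 0.0135), a call lost when fitted alone and without mouse 1, 2 or 3 (adjusted p from 0.0533 to 0.148).

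Col3a1, the chain of type III collagen, was at 2.92, 0.441, 0.702 and 2.91 FPKM in negative spinal cord libraries and at 0.866, 3.87, 4.54 and 4.03 FPKM in positive ones. Its thalamus values were 1.33, 1.43, 0.784 and 0.147 FPKM in negative libraries and 0.106, 0.0656, 0.132 and 0.207 FPKM in positive ones. The thalamus positive libraries were all below every spinal cord library, and the spinal cord positive library of mouse 1 was well below those of mice 2 to 4. Col3a1 was higher in spinal cord than in thalamus positive libraries (log2 fold change 1.82 ± 0.40, adjusted p = 0.0121, limma), a call lost without mouse 2, 3 or 4 (adjusted p = 0.0946, 0.139 and 0.0766). The change with the reporter in the spinal cord was log2 fold change 0.69 ± 0.40, adjusted p = 0.251, and it was called without mouse 1 (adjusted p = 0.0404).

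Col15a1, a multiplexin found next to basement membranes, was at 1.46, 0.0277, 0.249 and 3.86 FPKM in negative spinal cord libraries and at 0.895, 7.51, 5.91 and 9.45 FPKM in positive ones. In the thalamus it was at 0, 9.99, 0.268 and 0 FPKM in negative libraries and 0.174, 0.0727, 0.134 and 0.169 FPKM in positive ones. Mouse 1 was the lowest of the spinal cord positive libraries, as for Col3a1, and the thalamus negative library of mouse 2 was the highest of all 16. No comparison passed the threshold; the difference between regions in the positive gate was log2 fold change 2.36 ± 0.74, adjusted p = 0.0794 (limma) and passed without the spinal cord positive library of mouse 1 (adjusted p = 0.039).

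**Figure D5:**
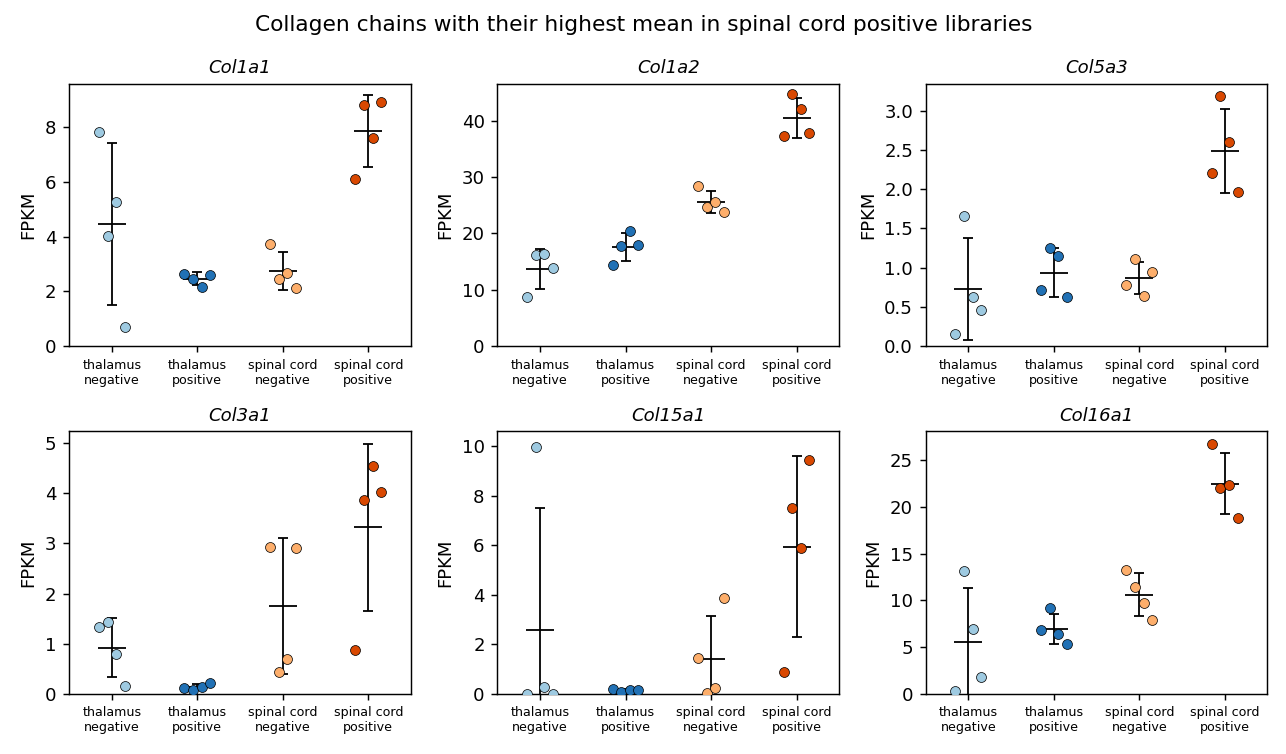
FPKM (y axis, from 0 with its own scale in each panel) of 6 collagen genes with their highest mean in spinal cord positive libraries, by group on the x axis, with points for mice 1 to 4 and bars for the mean ± SD. Spinal cord positive libraries lie above the spinal cord negative ones for Col1a1, Col1a2, Col5a3 and Col16a1, while mouse 1 falls below the other mice for Col3a1 and Col15a1.

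The plot of chains high in spinal cord positive libraries shows the low library of mouse 1 for Col3a1 and Col15a1. Dcn, a proteoglycan made by fibroblasts that binds type I fibrils, was at 1.31, 8.12, 6.64 and 10.3 FPKM in the spinal cord positive and 0, 2.64, 0.842 and 8.91 FPKM in the spinal cord negative libraries, so mouse 1 was lowest in each. It did not exceed 0.848 FPKM in the thalamus. In the spinal cord negative libraries Col3a1 was highest in mouse 1, at 2.92 FPKM. Col15a1 was at 1.46 FPKM in that library, so neither collagen was lowest there. Of 14 fibroblast and leptomeningeal markers 7 were tested. In each region 3 of these fell with the reporter, beside 13.6% (thalamus) and 10.5% (spinal cord) of all features. Dcn and Slc13a3 were higher in spinal cord than in thalamus positive libraries, beside 4.22% of all features. The summed level of the list was 551 to 680.0 FPKM in spinal cord positive, 321 to 529.7 in spinal cord negative, 132 to 404 in thalamus negative and 184 to 260.4 FPKM in thalamus positive libraries. Slc13a3 alone, a transporter that astrocytes also express, made up 610.1 ± 55.9 FPKM of the spinal cord positive sum. Without it the other 13 markers summed to 3.98 to 14.6, 15.7 to 42.3, 3.91 to 37.97 and 1.36 to 3.17 FPKM in the same order. Twist1 and Crabp2 were listed at 0 in 11 libraries each, Foxc2 in 10, Slc6a13 in 7, Lum in 6 and Foxd1 in 5. Of 13 astrocyte markers, 9 had their highest mean in spinal cord positive libraries, 3 in spinal cord negative and 1 in thalamus positive ones. The part of fibroblasts or of astrocytes in the levels of Col1a1, Col1a2, Col3a1, Col5a3, Col15a1 and Col16a1 was not tested.

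The remaining tested genes, Col5a1, Col6a3, Col8a1, Col9a2, Col11a2, Col22a1 and Col27a1, were called in none of the 5 comparisons. Col27a1, a fibrillar chain, was at 1.97 to 3.36 FPKM in thalamus negative, 2.36 to 4.00 in thalamus positive and 2.77 to 4.41 in spinal cord negative libraries, and the spinal cord positive ones, at 4.55 to 5.43 FPKM, lay above all 12 others. Col8a1, Col11a2 and Col22a1 had their highest values in the thalamus negative library of mouse 1, at 6.84, 5.41 and 6.72 FPKM. Among the genes below the level condition, Col6a5 was listed at 0 in 10 libraries and reached 1.95 FPKM in thalamus negative ones, and 12 genes never reached 1 FPKM. The type VI genes Col6a1 and Col6a2, whose products are abundant in fibroblast matrix, stayed at or below 0.594 and 0.758 FPKM.

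Enzymes and chaperones that build collagen in the cell were listed as synthesis and secretion genes, 19 tested of 20 measured. Their median log2 fold changes were 0.39 (thalamus) and 0.17 (spinal cord), beside 0.06 and 0.09 over all features. With the reporter 3 rose and 1 fell in the thalamus, beside 11.6% and 13.6% of all features. In the spinal cord 3 rose and 0 fell, beside 9.04% and 10.5%. There 1 of 19 pointed down at an unadjusted p under 0.05. P4ha1, a catalytic subunit of prolyl 4-hydroxylase, was at 6.54, 16.2, 10.1 and 14.8 FPKM in negative thalamus libraries and at 26.5, 26.7, 23.1 and 24.4 FPKM in positive ones. In the spinal cord it was at 13.3, 11.2, 6.10 and 12.6 FPKM in negative libraries and 25.3, 28.0, 24.4 and 21.0 FPKM in positive ones. The positive libraries exceeded the negative ones of their region in every mouse and without overlap, and P4ha1 rose in the thalamus (log2 fold change 1.09 ± 0.26, adjusted p = 0.00701) and in the spinal cord (log2 fold change 1.16 ± 0.26, adjusted p = 0.00546, limma).

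Leprel2, a prolyl 3-hydroxylase family gene, was at 2.64 ± 0.725 FPKM in negative spinal cord libraries and at 10.7 ± 1.16 FPKM in positive ones (log2 fold change 1.71 ± 0.29, adjusted p = 0.00085, limma), and at 7.32 ± 4.25 and 6.57 ± 0.531 FPKM in the thalamus ones. P4ha3, another prolyl 4-hydroxylase subunit, fell in the thalamus from 81.4 ± 29.5 to 34.6 ± 5.46 FPKM (log2 fold change -1.14 ± 0.25, adjusted p = 0.00444). The lysyl hydroxylase Plod2 rose there from 82.0 ± 26.6 to 124 ± 3.23 FPKM (log2 fold change 0.66 ± 0.23, adjusted p = 0.0456). Of 7 tested genes for processing and crosslinking outside the cell, 2 rose in each region, beside 11.6% (thalamus) and 9.04% (spinal cord) of all features. Among them was Adamts2, a procollagen N-proteinase (log2 fold change 0.91 ± 0.26, adjusted p = 0.0206 in thalamus libraries and log2 fold change 0.87 ± 0.26, adjusted p = 0.0302 in spinal cord ones, limma).

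Collagen receptors had 8 tested of 11 measured genes. In the thalamus 1 rose and 3 fell, beside 11.6% and 13.6% of all features. Within the spinal cord 1 rose, beside 9.04%. Gpr56, an adhesion receptor that binds type III collagen, was at 72.8, 96.4, 146 and 144 FPKM in negative thalamus libraries and at 193, 147, 166 and 175 FPKM in positive ones. Its spinal cord values were 69.1, 65.2, 88.5 and 93.0 FPKM in negative libraries and 187, 218, 229 and 184 FPKM in positive ones. The spinal cord gates were far apart and the thalamus gates did not overlap but nearly touched, and Gpr56 rose in both (log2 fold change 0.61 ± 0.21, adjusted p = 0.0447 and log2 fold change 1.37 ± 0.21, adjusted p = 0.000332, limma). The receptor kinase Ddr1 fell in the thalamus from 13.9 ± 1.60 to 8.06 ± 0.977 FPKM (log2 fold change -0.72 ± 0.15, adjusted p = 0.00355), as did the integrin subunit Itgb1, from 21.9 ± 3.34 to 14.5 ± 1.93 FPKM (log2 fold change -0.55 ± 0.14, adjusted p = 0.0108).

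Among degradation genes and their inhibitors, 8 tested of 15, Timp2 fell in both regions, while 3 others rose and Mmp16 fell in the spinal cord. Over all features 9.04% rose and 10.5% fell in the spinal cord, and 13.6% fell in the thalamus. Timp2, an inhibitor of matrix metalloproteinases, was at 29.9, 46.5, 37.9 and 24.5 FPKM in negative thalamus libraries and at 7.74, 6.48, 7.89 and 5.50 FPKM in positive ones. The spinal cord values were 26.6, 22.6, 41.9 and 19.7 FPKM in negative libraries and 5.93, 7.67, 6.87 and 4.87 FPKM in positive ones. The positive libraries were all below 8 FPKM and the negative ones all above 19 FPKM (log2 fold change -2.15 ± 0.24, adjusted p = 2.18e-05 and log2 fold change -1.92 ± 0.24, adjusted p = 5.73e-05, limma). The inhibitor Timp3 rose in the spinal cord from 67.1 ± 10.9 to 114 ± 1.11 FPKM (log2 fold change 0.77 ± 0.15, adjusted p = 0.00222), and the membrane-bound collagenase Mmp14 from 18.5 ± 4.00 to 29.1 ± 2.11 FPKM (log2 fold change 0.65 ± 0.18, adjusted p = 0.0222).

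Other basement membrane genes, 12 tested of 18, moved partly with the type IV chains. In the thalamus 1 rose and 3 fell, beside 11.6% and 13.6% of all features. In the spinal cord 1 rose and 4 fell, beside 9.04% and 10.5%. The median log2 fold changes were -0.44 and -0.47, beside 0.06 and 0.09 over all features. Nid1, which links the laminin and type IV networks, was at 37.6, 45.0, 47.7 and 40.9 FPKM in negative thalamus libraries and at 12.2, 16.0, 13.7 and 13.5 FPKM in positive ones. In the spinal cord it was at 87.3, 81.5, 67.8 and 49.9 FPKM in negative libraries and 26.6, 34.3, 29.6 and 31.7 FPKM in positive ones. Neither region's gates overlapped, and Nid1 fell in both (log2 fold change -1.56 ± 0.17, adjusted p = 1.54e-05 and log2 fold change -1.18 ± 0.17, adjusted p = 0.000189, limma). Unlike Col4a1 and Col4a2, it was higher in spinal cord than in thalamus positive libraries (log2 fold change 1.09 ± 0.17, adjusted p = 0.00108). The laminin chain Lama2 was the one that rose in the thalamus, from 8.20 ± 1.90 to 13.5 ± 1.19 FPKM (log2 fold change 0.68 ± 0.16, adjusted p = 0.0065), and Lama4, a laminin chain of vessels, fell in the spinal cord from 5.80 ± 3.35 to 0.368 ± 0.181 FPKM (log2 fold change -2.18 ± 0.35, adjusted p = 0.00051).

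Small leucine-rich proteoglycans and other proteins that decorate collagen fibrils, 9 tested of 18, fell with the reporter in 3 cases in thalamus libraries and 4 in spinal cord ones. The shares of all features that fell were 13.6% and 10.5%. Prelp, which binds collagen and basement membranes, was at 61.4, 112, 71.8 and 97.4 FPKM in negative thalamus libraries and at 2.84, 1.68, 2.24 and 1.34 FPKM in positive ones (log2 fold change -4.83 ± 0.24, adjusted p = 1.01e-08, limma). Its spinal cord values were 54.0, 37.7, 77.4 and 47.4 FPKM in negative libraries and 7.42, 6.37, 7.09 and 5.43 FPKM in positive ones (log2 fold change -2.82 ± 0.24, adjusted p = 1.22e-06). The gates of both regions were far apart, and the regional difference of the change was 2.00 ± 0.34 (adjusted p = 0.00516). Bgn, a proteoglycan that binds type I collagen, fell from 61.7 ± 7.73 to 8.26 ± 1.52 FPKM in the thalamus (log2 fold change -2.77 ± 0.25, adjusted p = 3.2e-06) and from 185 ± 82.9 to 22.2 ± 4.74 FPKM in the spinal cord (log2 fold change -2.92 ± 0.25, adjusted p = 1.46e-06). Within the positive gate 6 of the 9 were higher in the spinal cord, beside 4.22% of all features. Among them were Dcn (log2 fold change 2.42 ± 0.60, adjusted p = 0.0269) and Fbln1, at 4.78 ± 1.42 FPKM in thalamus libraries and 19.1 ± 3.92 FPKM in spinal cord ones (log2 fold change 1.81 ± 0.36, adjusted p = 0.00714).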

How the data were processed

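The authors deposited FPKM values of 39171 features in 16 libraries; per the submitters' processing notes the build was GRCm38 and the tools included Bowtie2 2.2.3 and TopHat2 2.0.11, Cufflinks and Cuffnorm, HTSeq 0.6.1p1, FastQC and DESeq2, with no roles given. RNA was isolated with a micro kit and amplified with NuGEN RNA-Seq V2, per the labels' protocols. Sequencing depth is unknown. Coordinates are those of the GENCODE annotation of GRCm38 in 1-based form. A deposited comparison table of 444 rows held 0 collagen genes and was not used. Here log2(FPKM + 1) entered a limma fit (3.58.1, R 4.3.3) with a trended prior, 1 coefficient per group over all 16 libraries, for the 16340 features at 1 FPKM or more in at least 4 libraries. P-values were adjusted by Benjamini-Hochberg over these features, and called under 0.05; the fit was tested on simulated data. Groups that do not overlap have a two-sided exact permutation p of 0.0286, the smallest that 4 against 4 allows. The collagen genes and all lists were chosen with earlier results of these data known.

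Values in every library are given for collagen genes with a group mean of at least 5 FPKM, or called in a comparison with at least 2 FPKM in the higher group, 17 in all. Of other lists, up to 2 called genes a direction and comparison were eligible, by size of change among those at 5 FPKM or more; Dcn, Cdh5, Rgs5, Sox10, Aldh1a2 and Slc13a3 were added after their values were seen. Per the labels, libraries with 1 mouse number are from 1 animal; deviations from group means correlated at 0.036 on average over the 24 same-mouse pairs and at -0.012 over 72 other pairs. The 27 alternatives were the mouse as a block, other pseudocounts, level conditions, a median-of-ratios rescaling, the compared groups alone, and leaving out a mouse or a library.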

Additional observations from a re-analysis of the deposited data

Results flagged for a closer look

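For 7 of 68 sets of 4 libraries of the 17 described genes, 1 library stood far from the other 3 by Dixon's criterion, which chance meets in about 1 of 20 sets. Col2a1 was at 2.08 FPKM in the thalamus negative library of mouse 4, where the next was at 0.542, and at 0.428 FPKM in the spinal cord positive library of that mouse, where the next was at 0.0727. Col4a1 was at 4.52 FPKM in the thalamus positive library of mouse 2 (next 2.01) and at 0.141 FPKM in the spinal cord positive library of mouse 4 (next 0.493). Col11a1 was at 15.5 FPKM in the spinal cord negative library of mouse 1 (next 5.01). Col15a1 was at 9.99 FPKM in the thalamus negative library of mouse 2 (next 0.268). Col23a1 was at 2.63 FPKM in the spinal cord positive library of mouse 2 (next 1.97).

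The change with the reporter differed between the regions, by a test of the difference itself, for Col23a1 (-1.68 on the log2 scale, limma adjusted p = 0.00417), which fell in both regions and more in the spinal cord. Col14a1 also passed (-4.73, limma adjusted p = 1.67e-08), but it entered the fit only through the spinal cord negative libraries and so had to differ. It fell in the spinal cord, while its thalamus change, log2 fold change 0.27 ± 0.15, adjusted p = 0.201, was above 0 and was called with a pseudocount of 0.1 (adjusted p = 0.0254).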

How the results depend on the processing

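With the mouse as a replicate block, the paired fit called as many collagen genes as the fit without it in each comparison: 0 higher and 5 lower in the thalamus, 3 and 8 for the spinal cord, 0 and 2 for the regional difference, 6 and 1 between regions in the negative gate and 5 and 2 in the positive gate. In the positive gate the block lost Col1a1 (adjusted p = 0.0574) and gained Col12a1 (adjusted p = 0.0345), both given above; among the genes described it changed no other call. No change of a described gene reversed its direction while called; over all described genes, comparisons and alternatives, 1547 fold changes kept direction and side of the threshold, 83 lost their call and 29 gained one. A pseudocount of 0.1 gave 1 gene higher in the thalamus, 1 higher in the spinal cord and 3 higher between regions in the positive gate; a pseudocount of 0.5 gave 3 for the last. With no level condition these were 1 higher in the thalamus and 3 higher in the positive gate, and 3 were lower between regions in the negative gate, against 0 lower there with 5 FPKM as the condition. Fitting only the groups compared gave 3 lower in the thalamus, 0 lower in the negative gate and 9 higher in the positive gate. Leaving out a mouse or a library gave 0 to 1 higher and 2 to 7 lower in the thalamus, 0 to 4 and 5 to 8 for the spinal cord, 0 to 1 and 0 to 3 for the regional difference, 3 to 7 and 0 to 2 in the negative gate, and 1 to 4 and 1 to 2 in the positive gate; the cause was not tested. Rescaling moved the median of all features by -0.0196 on the log2 scale in the spinal cord and by less in the other comparisons. Xist was at 175 to 468 FPKM in mouse 1 and at most 1.46 FPKM in the others, so leaving out mouse 1 leaves out the only female by this transcript. FPKM without counts gives no depth, so the precision of values near 0 is unknown.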
